A study of Rattus norvegicus with 6 samples.

Results

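Filamin A (Flna), the non-muscle alpha-actinins (Actn1 and Actn4), synaptopodin (Synpo) and a palladin-like gene (Palldl1) were followed in rat cortical astrocytes that had either been left flat or been bundled into tissue-engineered rostral migratory streams (TE-RMSs). The 5 genes, of 23940 listed, were selected on their lower abundance in TE-RMS than in planar astrocytes, so their differences between the conditions are given as a description, without a test. All 5 were lower in the TE-RMS library of 3 of 3 runs. On the fitted scale Synpo was 9.22-fold lower, Palldl1 5.73-fold, Flna 5.57-fold, Actn4 4.17-fold and Actn1 2.92-fold.

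RNA was sequenced as 6 libraries, 3 of each condition. The cells came from the cortex of Sprague-Dawley pups at postnatal day 0 to 1 and were used at passage 4, and in both conditions they were grown for 4 days in vitro in the same medium. Planar astrocytes (2Dastro in the labels) grew on a collagen layer in wells and were taken fresh. TE-RMS astrocytes (TERMS in the labels) were seeded in collagen-coated agarose microchannels, where they form a lengthwise bundle. Bundles were chosen by eye for tight alignment, kept in a preservative and pooled into 1 library per run, so bundling, preservation and pooling cannot be told apart. Each of the 3 runs, named July, September and October here after the labels, used astrocytes of other animals and gave 1 library of each condition. The planar libraries held 70682593, 70478784 and 56483332 counts in that order of runs, and the TE-RMS libraries 54601354, 77277336 and 64537115.

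Actin crosslinkers set the shape of a filament network. Filamins are long, flexible dimers that tie crossing filaments into a loose mesh and anchor it to integrins and other membrane proteins. Alpha-actinins are short rod-shaped dimers that bind parallel filaments into bundles and lie along stress fibres and at adhesions. Synaptopodin, known from the foot processes of kidney podocytes and from dendritic spines, and palladin, a stress fibre protein with immunoglobulin-like domains, both bind alpha-actinin. In astrocytes in culture, such bundles of actin are prominent in flat, spread cells.

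The 300 bases around the annotated start of 4 of the genes, 250 before and 50 after it, were read from RefSeq on GRCr8. Those of Flna, Actn1 and Synpo are shown because these genes were low in the same libraries. That of Palldl1 is shown because it bears on how its counts can be read. All run 5′ to 3′ along the gene's strand. In the first 3, capitals mark each GC box, searched as GGGCGG on both strands, and in Flna also the TEAD motif, searched as CATTCC on both strands. In Palldl1, capitals mark the unbroken run of 296 bases that is identical in the first listed window of palladin (Palld).
Flna, chrX:157182294-157182593, minus strand: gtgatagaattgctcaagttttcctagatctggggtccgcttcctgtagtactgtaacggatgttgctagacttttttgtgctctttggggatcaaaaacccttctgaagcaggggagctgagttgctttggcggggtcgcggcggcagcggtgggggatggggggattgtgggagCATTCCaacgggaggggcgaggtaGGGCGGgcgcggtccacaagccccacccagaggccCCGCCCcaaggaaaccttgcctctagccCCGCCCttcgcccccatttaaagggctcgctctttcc
Actn1, chr6:104826123-104826422, minus strand: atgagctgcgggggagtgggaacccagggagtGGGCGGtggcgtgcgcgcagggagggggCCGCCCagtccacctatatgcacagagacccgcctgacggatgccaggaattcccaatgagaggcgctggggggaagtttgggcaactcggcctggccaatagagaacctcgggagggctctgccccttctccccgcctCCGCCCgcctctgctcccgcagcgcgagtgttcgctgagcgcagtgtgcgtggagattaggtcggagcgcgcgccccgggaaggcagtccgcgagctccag
Synpo, chr18:56347310-56347609, minus strand: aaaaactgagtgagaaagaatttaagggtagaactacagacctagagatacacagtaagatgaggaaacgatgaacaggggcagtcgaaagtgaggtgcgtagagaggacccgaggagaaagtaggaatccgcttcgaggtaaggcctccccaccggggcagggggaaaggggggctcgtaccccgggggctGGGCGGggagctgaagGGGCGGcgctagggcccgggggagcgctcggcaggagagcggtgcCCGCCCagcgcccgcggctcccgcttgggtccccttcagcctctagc
Palldl1, chr16:32985002-32985301, plus strand: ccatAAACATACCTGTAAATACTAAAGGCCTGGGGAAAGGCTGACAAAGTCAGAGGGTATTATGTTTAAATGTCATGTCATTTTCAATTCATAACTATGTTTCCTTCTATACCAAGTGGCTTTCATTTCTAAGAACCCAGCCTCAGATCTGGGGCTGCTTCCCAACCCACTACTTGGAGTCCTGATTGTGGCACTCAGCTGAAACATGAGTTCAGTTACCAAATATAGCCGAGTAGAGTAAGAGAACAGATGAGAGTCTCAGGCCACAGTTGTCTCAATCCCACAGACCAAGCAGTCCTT
The windows of Flna, Actn1 and Synpo were rich in G and C, at 59.7%, 68.7% and 63%. Each held 3 GC boxes, and at least 1 was found in 33.1% of 33469 such windows. The share of windows with 3 was not counted, and windows of like G and C were not compared, so no enrichment is read. Flna also held 1 TEAD motif, which was found in 14.2% of all windows. The Palldl1 window held 43.3% G and C and neither motif. The CArG box, the motif that serum response factor binds, was in none of the 4 windows and in 1.64% of all windows. No start window of Actn4 was analysed here.

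The shared run of Palldl1 and Palld sets a limit on the name. It does not extend to every listed start of Palld. Window 2 of Palld shared a run of 295 bases with the Palldl1 window shown, but windows 3, 4 and 5 at most 8, 11 and 11 bases. RefSeq places both genes near each other on chromosome 16, with Ddx60 and 2 long non-coding genes between them. The counting tool divides reads that fit several transcripts by probability, so the counts under Palldl1 are uncertain to the extent that the transcripts of both genes are alike. Whether the Ensembl gene model counted here under the name Palldl1 takes in transcripts of Palld was not settled, so its values may be partly or wholly those of Palld. No separate values of Palld were analysed here. The same division bears on Flna beside Flnc and on Actn1 beside Actn4, which are paralogs.

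Flna (ENSRNOG00000054890, chrX:152007758-152031052, minus strand on mRatBN7.2) showed the widest range between runs. Levels are given as CPM after TMM scaling (the share of a library's counts, scaled to a common library size), which is not corrected for gene length, so levels of different genes are not compared and a sum over genes weighs long genes more. In planar astrocytes Flna was at 701.2 CPM in July, 212.3 in September and 236.3 in October. In the TE-RMS libraries of the same runs it was at 139.4, 30.6 and 47.8 CPM. The July library was the highest in each condition, and the highest TE-RMS value lay below the lowest planar value. The TE-RMS level was 19.9%, 14.4% and 20.3% of the planar level of its run. The mean was 383.3 ± 275.6 CPM (SD, n = 3) in planar and 72.6 ± 58.5 CPM in TE-RMS astrocytes. The wide SDs come with a run difference that both conditions share, and the within-run log2 ratio varied by an SD of 0.28 around a fitted log2 fold change of -2.48 (standard error 0.18).

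Actn4 (ENSRNOG00000020433, chr1:84182788-84251847, minus strand) is the alpha-actinin that is also linked to cell motility. Its level in planar astrocytes was 840.5, 503.3 and 575.8 CPM in July, September and October. In TE-RMS astrocytes it was 182.2, 158.3 and 116.8 CPM. The conditions did not overlap, and the 3 TE-RMS libraries lay close together, at 152.4 ± 33.1 CPM (SD, n = 3) beside 639.9 ± 177.5 CPM in planar astrocytes. The TE-RMS level was 21.7%, 31.5% and 20.3% of the planar one, with September the least reduced. The log2 fold change was -2.06 (standard error 0.18).

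Actn1 (ENSRNOG00000056756, chr6:98998556-99093251, minus strand), the alpha-actinin found along stress fibres and at focal adhesions, was the least reduced of the 5 in each run. Its planar level was 322.0, 163.1 and 174.4 CPM in the same order of runs. Its TE-RMS level was 100.5, 64.2 and 56.9 CPM, again without overlap. These are 31.2%, 39.4% and 32.6% of the planar level. The means were 219.9 ± 88.7 CPM and 73.9 ± 23.4 CPM (SD, n = 3), and the log2 fold change was -1.55 (standard error 0.17).

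Synpo (ENSRNOG00000019181, chr18:54026152-54102126, minus strand) was the most reduced in each run and rested on the fewest reads. It had 1360, 762 and 824 counts in planar libraries and 216, 73 and 59 counts in TE-RMS libraries. The exact Poisson interval at 95% around the lowest count was 44.9 to 76.1 counts, and that around 73 counts was 57.2 to 91.8, both covering counting error only. The September and October TE-RMS libraries were thus alike within that error, and all planar counts lay far above them. In CPM the planar libraries had 20.1, 10.5 and 13.6 and the TE-RMS libraries 3.81, 1.01 and 0.929. The means were 14.8 ± 4.88 CPM and 1.92 ± 1.64 CPM (SD, n = 3). The TE-RMS level was 19.0%, 9.64% and 6.82% of the planar level, so the July run had the smallest reduction. The log2 fold change was -3.20, with a standard error of 0.40, the widest of the 5.

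Palldl1 (ENSRNOG00000010107, chr16:27981354-28621337, plus strand) was at 148.2, 72.9 and 92.5 CPM in the planar libraries. In the TE-RMS libraries it was at 37.6, 11.6 and 12.1 CPM. September and October were again close to each other and below July, without overlap between the conditions. The TE-RMS level was 25.4%, 15.9% and 13.1% of the planar one. The means were 104.5 ± 39.1 CPM and 20.5 ± 14.9 CPM (SD, n = 3), and the log2 fold change was -2.52 (standard error 0.21).

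**Figure D1:**
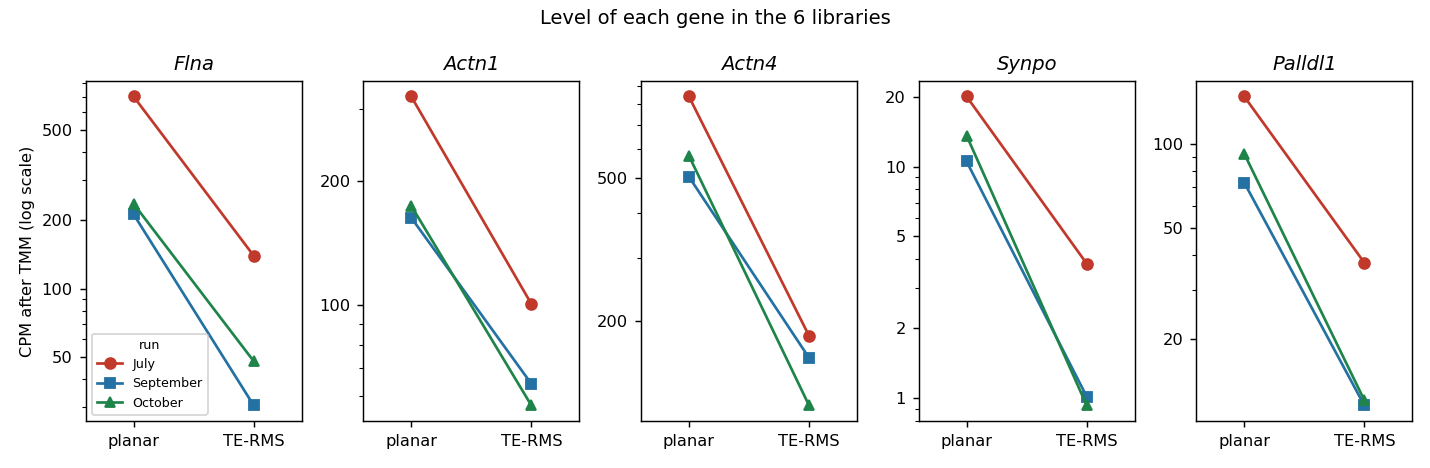
CPM after TMM scaling on a log axis for each of the 5 genes, with the planar and TE-RMS library of a run joined by a line (circles July, squares September, triangles October). Every line falls, the July library is the highest in each condition for each gene, and no TE-RMS value reaches the lowest planar value of its gene.

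Over all 16331 genes with enough counts to test, 1516 were called lower in TE-RMS by edgeR's quasi-likelihood test (9.28%) and 1528 higher (9.36%), at a Benjamini-Hochberg adjusted p of 0.05. The 5 genes are among the former, and since they were chosen on that contrast nothing is read from it. TE-RMS values lay wholly below planar values for 16.1% of the tested genes. The median log2 fold change of all tested genes was -0.12. In bulk RNA, fewer cells of a kind and less RNA per cell cannot be told apart.

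The order of the reductions was compared within runs. Synpo was the most reduced and Actn1 the least in 3 of 3 runs, while the other 3 genes changed places. In July, however, Flna lay only 0.06 above Synpo on the log2 scale. The log2 ratio of Synpo less that of Palldl1 was -0.41, -0.69 and -0.90 in July, September and October, a mean of -0.67 with an SD of 0.24. The log2 ratio of Actn1 less that of Actn4 was 0.53, 0.32 and 0.68, a mean of 0.51 with an SD of 0.18. Flna and Palldl1 were not separable, since their difference changed sign between runs and averaged 0.04 with an SD of 0.52. Flna and Actn4 differed by -0.42 on average with an SD of 0.62, most of it from the September run. The 3 genes in the middle thus differed by no more than their spread over runs.

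**Figure D2:**
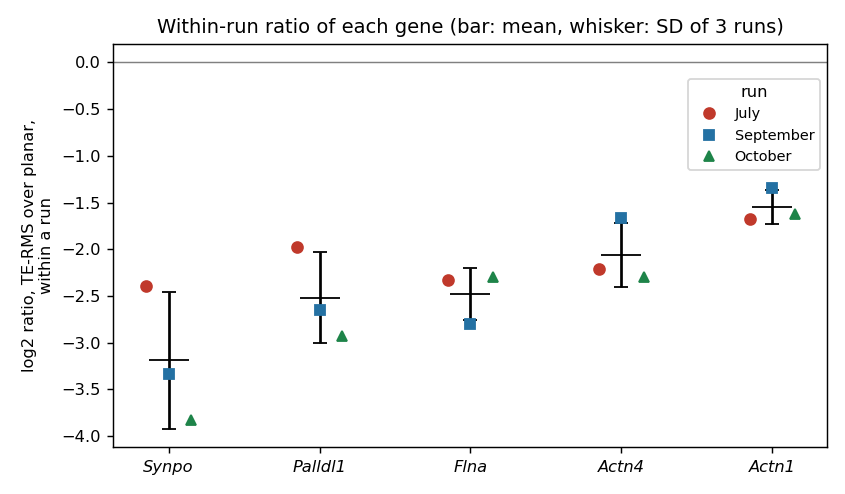
Within-run log2 ratio of TE-RMS over planar CPM for each gene, 1 symbol per run (circles July, squares September, triangles October), with the mean as a bar and the SD over 3 runs as whiskers. Synpo is lowest and Actn1 highest in each run, and Palldl1, Flna and Actn4 overlap.

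The balance between the alpha-actinins also moved. A ratio of counts of 2 genes depends on their lengths, so only its change between libraries is read. The count of Actn4 relative to that of Actn1 was 2.61, 3.09 and 3.30 in planar libraries and 1.81, 2.47 and 2.05 in TE-RMS libraries. It was lower in TE-RMS in 3 of 3 runs without overlap between the conditions.

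**Figure D3:**
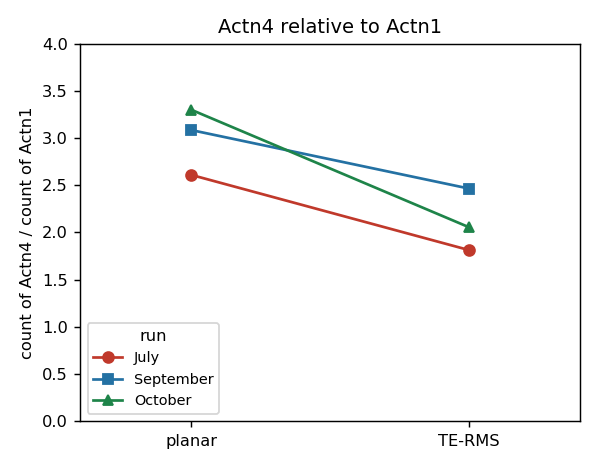
The count of Actn4 divided by that of Actn1 in each library, with the libraries of a run joined (circles July, squares September, triangles October). The ratio is lower in each TE-RMS library, at 1.81 to 2.47, than in any planar one, at 2.61 to 3.30.

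The difference between runs had no part in the choice of the genes and was tested. For all 5 genes July was the highest run in both conditions. The joint test of the run terms (edgeR quasi-likelihood, Benjamini-Hochberg over all tested genes) called 3 of the 5, beside 525 of 16331 genes in all (3.21%). Among genes with a similarly small p between the conditions that share was not counted. Some of those, such as Tagln and Fgfr3, were also called for the run, and others, such as Hmox1 and Thbs1, were not. The 3 calls are thus not read as particular to these genes. Of the 5, Flna differed most, with an adjusted p of 0.000513, and its log2 difference from July was -1.95 in September and -1.56 in October. Palldl1 followed with an adjusted p of 0.0112 in the same edgeR test and differences of -1.38 and -1.16. Actn1 had an adjusted p of 0.0400 and differences of -0.81 and -0.85. Synpo, with differences of -1.46 and -1.29, had an adjusted p of 0.150, and Actn4, with -0.46 and -0.59, one of 0.289. Neither passed the threshold. The 3 calls rest on the July run. Without it the edgeR adjusted p was 0.280 for Flna, 0.759 for Palldl1 and 0.963 for Actn1. Actn1 also lost its call without October, at 0.0804. With a filter of at least 10 counts in 3 libraries it was 0.0816 for Actn1 and 0.0555 for Palldl1.

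Added together, the 5 genes made up 0.195%, 0.0988% and 0.117% of all counts in planar libraries and 0.0481%, 0.0247% and 0.0231% in TE-RMS libraries. Markers of other cells moved in both directions, and symbols could be matched only for genes with small p in this contrast. The matched mural and fibroblast markers were lower in TE-RMS. Of the microglial and neuronal ones described below, Cd68, Snap25 and Map2 were higher and Tmem119 was lower. Of 11 markers of mural cells, the smooth muscle cells and pericytes of vessels, 5 could be matched to a symbol (Acta2, Tagln, Cnn1, Lmod1 and Cspg4), and all were lower in TE-RMS. Tagln took the largest part of their counts, which are not corrected for length. Their summed level was 6492, 754.5 and 1688 CPM in planar and 421.8, 63.8 and 76.7 CPM in TE-RMS libraries. The sum was highest in July in both conditions and consisted mostly of Tagln, at 5917 of 6492 CPM in planar and 391.2 of 421.8 CPM in TE-RMS July. Lmod1 was also highest in July in both conditions. In TE-RMS libraries Acta2 and Cspg4 were highest in September and Cnn1 in October, and in planar libraries Cspg4 was lowest in July. None of the 5 was at 0 in all libraries. The fibroblast markers Col1a1, Col1a2 and Col3a1, 3 of 6 listed, summed to 645.7, 395.0 and 634.4 CPM in planar and 179.8, 143.6 and 228.9 CPM in TE-RMS libraries, and Col1a2 took the largest part of these counts. Their part in the levels of the 5 genes was not tested. Acta2 and Tagln are not restricted to mural cells.

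**Figure D4:**
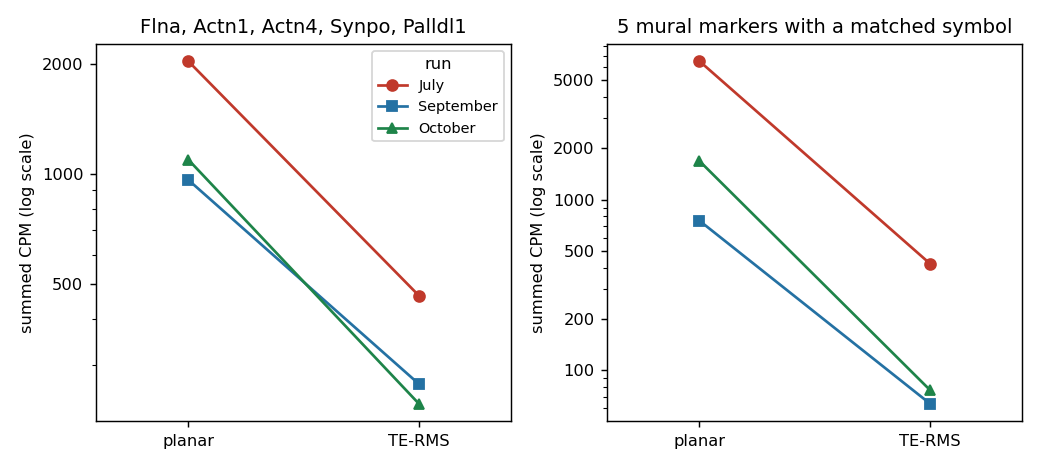
Summed CPM on a log axis of the 5 genes (left) and of the 5 mural markers with a matched symbol (right), with the libraries of a run joined (circles July, squares September, triangles October). Both sums are highest in July and lower in TE-RMS in each run, the mural sum from 6492 to 421.8 CPM in July.

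The labelled cell type was checked against 12 astrocyte markers, of which 5 could be matched. Slc1a3, the glutamate transporter GLAST, was at 240.7, 253.5 and 275.4 CPM in planar and 722.1, 673.8 and 882.0 CPM in TE-RMS libraries. Slc1a3, Slc1a2, Gja1 (connexin 43) and Atp1b2 were higher in TE-RMS by 1.56, 3.92, 1.49 and 1.88 on the log2 scale. Matched markers have small p in this contrast by choice, so only their direction is read. Markers without a match were not described. Fgfr3 was lower, with a log2 fold change of -2.57. The markers moved the opposite way to the 5 crosslinker genes, apart from Fgfr3. Gfap and Aqp4 were not analysed here by name. Of 8 microglial and 6 neuronal markers, 2 each could be matched, and of 5 endothelial markers 0. Of 7 oligodendrocyte lineage markers only Cspg4, also on the mural list, was matched. Cd68 and Tmem119 summed to 25.9, 38.8 and 27.2 CPM in planar and 13.9, 91.0 and 12.9 CPM in TE-RMS libraries. The high September TE-RMS sum was mostly Cd68, at 85.4 CPM. Cd68 was higher in TE-RMS in 3 of 3 runs, with a log2 fold change of 2.49, and Tmem119 was lower in 3 of 3 runs, at -1.94. The neuronal genes Snap25 and Map2 were higher in TE-RMS, and Snap25 was at 60.8 CPM in the September TE-RMS library beside at most 3.92 CPM in the other 5.

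The other crosslinkers did not all follow. Symbols could be matched only for genes with small p in the contrast of TE-RMS with planar astrocytes, so each matched gene passes that test and the direction, not the share called, is described. Of 7 listed filamins and filamin regulators 3 were matched and 3 were lower, with a median log2 fold change of -2.48. Flnc, filamin C, best known from muscle, went from 49.3, 22.1 and 24.8 CPM to 5.45, 2.07 and 0.914 CPM, a log2 fold change of -3.75 (standard error 0.34), below that of Flna in each run. Rflnb, a filamin regulator, had a log2 fold change of -1.62 but overlapped between the conditions, with its highest values in October, not July.

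Of 14 listed alpha-actinins and relatives of the spectrin superfamily, 4 were matched, 3 lower and 1 higher, with a median log2 fold change of -1.81. Besides Actn1 and Actn4, Plec, the linker of intermediate filaments to actin, was lower, with a log2 fold change of -2.26. Dystrophin (Dmd), which ties actin to the membrane, was higher, at 26.0, 24.2 and 46.4 CPM in planar and 116.7, 101.4 and 102.9 CPM in the bundles, which gave a fitted change of 1.80 on the log2 scale (standard error 0.21). In the family of synaptopodin and palladin, 2 of 7 were matched, and these are Synpo and Palldl1.

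Among 17 other bundlers, 6 were matched, 3 lower and 3 higher, with a median log2 fold change of 0.08. Pls3, plastin 3, which packs filaments tightly, rose from 333.1, 372.0 and 384.4 CPM to 706.0, 1154 and 1106 CPM, by 1.41 on the log2 scale (standard error 0.18). Pls1, plastin 1, rose from 6, 56 and 2 counts to 75, 436 and 249 counts. Triobp was higher by 0.97 with overlap between conditions. Tns1 (tensin 1), Dbn1 (drebrin) and Marcks were lower, with log2 fold changes of -2.99, -1.87 and -0.81, the last with overlap. The plastins and dystrophin thus moved opposite to Flna, Actn1 and Actn4. Without the October run 2, not 3, of this list were called lower, a count that matching on small p favours and that is not read further.

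**Figure D5:**
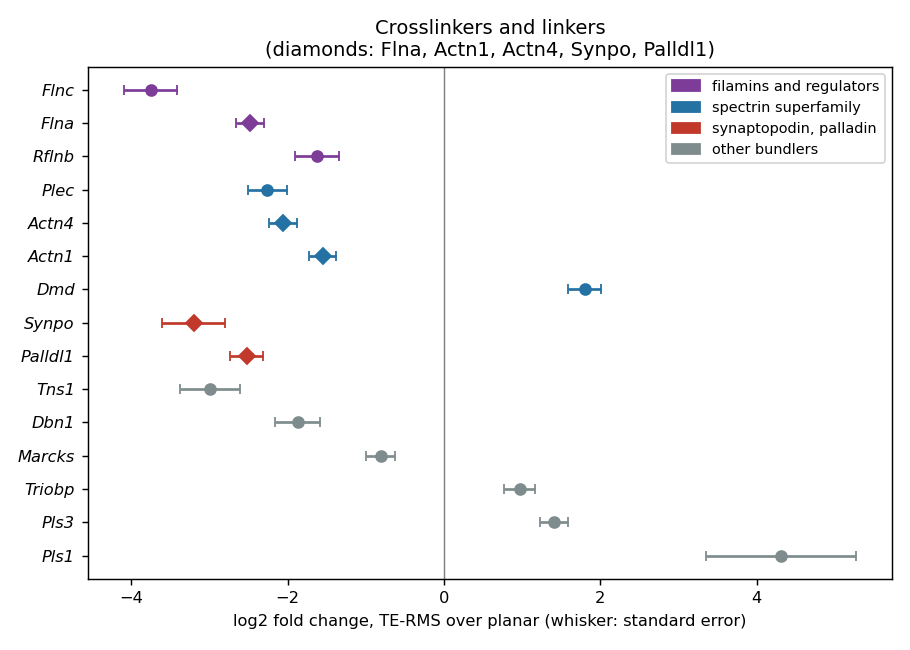
Log2 fold change of TE-RMS over planar with its standard error for the crosslinkers and linkers described here, coloured by list, with diamonds for Flna, Actn1, Actn4, Synpo and Palldl1. The filamins, actinins, Synpo and Palldl1 lie left of 0, and Dmd, Triobp, Pls3 and Pls1 lie right of it.

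The partners of the crosslinkers were described in the same way. Of 31 focal adhesion and stress fibre adaptors 18 were matched, 16 lower and 2 higher, with a median of -1.31. The most and next most reduced were Ajuba, a LIM adaptor of adhesions, at -2.37, and Fhl2, a LIM coactivator, at -2.18. Lims1 (PINCH) and Ctnna1 (alpha-catenin, a linker of cadherins to actin) were higher, by 1.29 and 0.91. Of 16 genes of the filament itself, 10 were matched and all 10 were lower, with a median of -1.60. With 1 run left out 8 to 9 were called lower, beside 2081 to 3210 of all tested genes called in either direction. Matching required a small p in the same contrast, so these calls are not read as support. Acta2 and Acta1 had the lowest log2 fold changes, -6.64 and -4.17, and Actb and Actg1, the cytoplasmic actins, the mildest, -0.99 and -0.77, with overlap between conditions. Actb and Actg1 had smaller fitted reductions than each of the 5 crosslinkers. Those 5 were chosen for being lower in TE-RMS, so nothing is read from this order.

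Of 24 genes of actin turnover and branching 10 were matched, 6 lower and 4 higher, with a median of -0.87. Limk2, a kinase that acts on cofilin, and Arpc1b, a subunit of the branching complex, had log2 fold changes of -2.90 and -1.21, and Scin (scinderin, which severs filaments) and Pfn2 (profilin 2) of 2.44 and 1.18. Scin was high in September alone, at 45.7 CPM in the TE-RMS and 4.66 CPM in the planar library. Without September 3 of this list were called higher, which is again not read as support. Of 7 SRF and MRTF factors only Srf, serum response factor, was matched. It was at 18.7, 9.66 and 13.9 CPM in planar and 2.29, 1.25 and 2.46 CPM in the bundles, which gave a fitted log2 change of -2.82 (standard error 0.35), in the range of Synpo and Palldl1.

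Likeness of pattern was measured by Pearson's r of log2 CPM over the 6 libraries, which share runs and conditions, and is given without a test. Among the 5 genes r ran from 0.907 for Flna and Actn4 to 0.997 for Synpo and Palldl1, each of which was the other's nearest matched gene. The nearest matched genes of the other 3 were Pcsk7, a proprotein convertase, for Flna (r = 0.9954), Ap1s1, a clathrin adaptor subunit, for Actn1 (r = 0.9934), and Ddx6, an RNA helicase, for Actn4 (r = 0.9939). Nearest to the mean profile of the 5 were Arhgef25, a guanine nucleotide exchange factor (r = 0.9938), Dbnl, drebrin-like (r = 0.9926), Myl9, the myosin regulatory light chain (r = 0.9923), and St3gal2, a sialyltransferase (r = 0.9921). Mmp28, Cdkn1b, Maf1, Cnn2 (calponin 2), Pygo2 and Sgsm2 followed, down to 0.9858. Of 16326 genes, named or not, 20 reached that value. All 10 were lower in TE-RMS, with log2 fold changes from -2.98 for Myl9 to -0.96 for Pygo2. That direction was given by the profile, which falls in TE-RMS, and by matching on small p. The high r among the 5 genes is likewise favoured by their choice on that contrast.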

How the data were processed

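The 6 rat astrocyte libraries were made with a non-stranded kit, and sense and antisense reads are counted alike. Reads were trimmed by the authors (fastp) and assigned to Ensembl v111 transcripts of mRatBN7.2 (Salmon), which tximeta and biomaRt gathered into genes. What was deposited by the authors are raw estimated counts. All are whole numbers, and rounding before a count test left them as they were.

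Genes whose counts summed to 10 or more (16331 of 23940, with all 5 genes described) entered edgeR 4.0.16 (R 4.3.3). Its quasi-likelihood test was run on TMM-scaled libraries with run as a block, and p-values were adjusted by Benjamini-Hochberg with a threshold of 0.05. The prior count for fold changes was 0.125. Within-run ratios and correlations used log2 CPM with a prior count of 2. Replicates were libraries of different runs, and replicate libraries of a condition differed far beyond sampling noise (chi-square per degree of freedom 250.3 to 359.8). The libraries of a run came from the same astrocyte isolation, and their deviations from the condition means correlated at 0.271, 0.24 and 0.182, against -0.155 to -0.0657 between different runs. On simulated counts with 200 changed genes the test recovered 61.5% for the condition among 15685 genes and 60% for the run among 15755, with 11.5% and 13.7% of its 139 calls each being unchanged genes, above the nominal rate.

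Symbols came from the study's list of differential expression, which pairs identifiers with names. Its columns of fold changes and p-values were not used. Some listed genes are not reported here and were left out of the list counts. Only its rows of smallest p were read, so no share of called genes in a list was read. Genes named are the 5, every other matched gene of the filamin, actinin, synaptopodin and bundler lists, the 2 highest and 2 lowest of each other list, all matched marker genes needed for a sum, and the nearest genes in pattern. The genes and the lists were chosen with earlier results of these data known. Alternatives were DESeq2 1.42.0 and limma 3.58.1 (voom), DESeq2 size factors, upper-quartile scaling, other filters, a robust fit, no block, another prior count and each run left out. Leaving out runs for the list counts was added after seeing the data.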

Additional observations from a re-analysis of the deposited data

How the results depend on the processing

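All 55 alternative values of the fold changes of Flna, Actn1, Actn4, Synpo and Palldl1 stayed negative. With 1 run left out they ran from -2.55 to -2.32 for Flna, -1.65 to -1.48 for Actn1, -2.25 to -1.90 for Actn4, -3.62 to -2.84 for Synpo and -2.79 to -2.28 for Palldl1, and the difference of Actn4 less Actn1 from -0.61 to -0.43. Without the replicate block, which ignores the pairing by run, 1441 genes were called between the conditions in place of 3044 (733 lower and 708 higher). With 1 run left out the count was 2081 to 3210. The run terms called 1245 genes by DESeq2's likelihood ratio test and 224 when 10 counts were required in 3 or more libraries, in place of 525, and 366 to 746 with 1 run left out. The adjusted p of the run terms ranged over the alternatives from 7.71e-18 to 0.280 for Flna, 3.33e-05 to 0.759 for Palldl1, 0.0013 to 0.963 for Actn1, 0.0525 to 0.949 for Synpo and 0.160 to 0.821 for Actn4. With 1 run left out these were 3.01e-06 to 0.280, 0.00104 to 0.759, 0.0395 to 0.963, 0.102 to 0.949 and 0.354 to 0.821. The cause of these shifts was not tested, apart from the smaller number of libraries where a run was left out. Of the 10 genes nearest in pattern, 9 were shared under upper-quartile scaling, 10 under DESeq2 size factors and 10 with a prior count of 0.5. The other alternatives, among them leaving out a run, were not run for this result. Of the 5 genes Synpo had the fewest counts, 59 in its lowest library, and several other genes named had fewer in theirs, such as Snap25 (1), Pls1 (2), Acta2 (3), Acta1 (5), Cspg4 (6), Scin (15) and Slc1a2 (28), so their fold changes rest on few reads in that library. What depth limited was not tested.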
